A study of Mus musculus with 2 samples.

Results

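Igf1, the gene of insulin-like growth factor 1, and the genes of 3 of its binding proteins, Igfbp2, Igfbp3 and Igfbp5, were followed across the cell clusters of salivary gland organoid stroma. They were taken by gene symbol, and these 4 genes are 4 of the 5238 genes listed in the 3 deposited cluster tables. Igfbp2, Igfbp3 and Igfbp5 were listed in all 3 tables and Igf1 in the control and integrated tables. The control group was 1 single-cell library of stroma from organoids, tissue-like aggregates in culture. It came from salivary glands of CD-1 mice, which are outbred, and its age label reads embryonic day 16 plus 7. The FGF2 group was 1 such library from organoids with FGF2, a fibroblast growth factor, and shared strain, tissue and age label with the control. The labels state 5023 captured control cells and 10107 captured FGF2 cells. For the dose and timing of FGF2, the number of animals and the meaning of the added 7, the information was not given in the sources used here.

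Insulin-like growth factor 1 is a secreted ligand of the receptor tyrosine kinase Igf1r and acts on growth and survival of many cell types. Most of it travels bound to the IGF binding proteins, which hold it away from the receptor, protect it, or release it near cells after they are cut by proteases such as pappalysin (Pappa). IGFBP-3 and IGFBP-5 also bind heparin-like matrix and can form a larger complex with the acid-labile subunit, whereas IGFBP-2 does not enter that complex. Mesenchymal cells are a known source of Igf1 and of several binding proteins.

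The loci and upstream sequences of the 3 binding protein genes identify what was compared between the libraries. In GENCODE M21 on GRCm38, the build also called mm10, Igf1 (ENSMUSG00000020053.18) is on the plus strand of chromosome 10 from 87858265 to 87937042. Igfbp2 (ENSMUSG00000039323.18) is on the plus strand of chromosome 1 from 72824503 to 72852474. Igfbp5 (ENSMUSG00000026185.8) is on the minus strand of chromosome 1 from 72857932 to 72874884, so that the 3' ends of these 2 neighbours face each other across 5457 bases. Igfbp3 (ENSMUSG00000020427.11) is on the minus strand of chromosome 11 from 7206086 to 7213923. The upstream sequences of these 3 binding protein genes are shown because the genes could be compared between the libraries and did not move in 1 direction.

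The 250 bases before the RefSeq transcript start, credited to RefSeq on GRCm38.p6, are given 5' to 3' on the strand of the gene, with matches to 4 motifs in capitals. They lie at chr1:72824230-72824479 (plus strand, Igfbp2, the more upstream of 2 starts in the table), chr11:7213924-7214173 (minus strand, Igfbp3) and chr1:72874866-72875115 (minus strand, Igfbp5).
Igfbp2: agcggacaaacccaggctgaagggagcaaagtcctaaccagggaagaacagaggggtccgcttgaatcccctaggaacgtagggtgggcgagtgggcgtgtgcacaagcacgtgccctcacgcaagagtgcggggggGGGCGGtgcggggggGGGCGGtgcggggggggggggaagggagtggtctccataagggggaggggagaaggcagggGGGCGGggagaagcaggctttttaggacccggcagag
Igfbp3: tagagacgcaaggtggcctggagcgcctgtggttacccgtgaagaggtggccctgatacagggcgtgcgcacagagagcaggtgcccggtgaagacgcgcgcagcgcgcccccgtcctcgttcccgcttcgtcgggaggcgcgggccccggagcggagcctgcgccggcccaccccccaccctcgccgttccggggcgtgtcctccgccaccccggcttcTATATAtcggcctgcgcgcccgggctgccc
Igfbp5: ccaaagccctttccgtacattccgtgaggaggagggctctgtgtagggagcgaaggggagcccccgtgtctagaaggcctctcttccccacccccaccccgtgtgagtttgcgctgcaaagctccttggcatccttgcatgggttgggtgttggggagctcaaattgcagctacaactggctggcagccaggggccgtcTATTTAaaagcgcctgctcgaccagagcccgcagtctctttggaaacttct

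The motifs were searched on both strands and were a TATA-type element spelled TATNTA, the Sp1 box spelled GGGCGG, the NF-Y site spelled CCAAT and the AP-1 element spelled TGANTCA. Igfbp3 held TATATA at 30 to 25 bases before the start, and Igfbp5 held TATTTA at 51 to 46 bases before it. The GENCODE 5' end of Igfbp5, at 72874884, lies inside the window shown for it, so this distance depends on the start used. Igfbp2 held 3 Sp1 boxes and no TATNTA. No match overlapped another motif. Among 32851 windows of the same length, 25.1% held TATNTA, 32.7% the Sp1 box, 33.8% the NF-Y site and 6.75% the AP-1 element. A match is a description of the letters and is not a measured site.

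For the control and FGF2 tables, values are shares of cells with a count of a gene, or averages in a cluster against the other cells of the same library. Shares of the integrated table pool both libraries after integration and are not plain shares of cells with a count. With 1 library a group, the spread between cultures is unknown and no difference was tested. The clusters were made by the authors from the same cells, so a gene that is high in a cluster describes that cluster and is no test. Depth per cell was unknown. Clusters keep the authors' numbers, and some were named from cell type markers. Contractile-like cells were control cluster 5 (7 of 7 markers listed higher) and FGF2 cluster 4 (5 of 7). Proliferating-like cells were control clusters 7 and 8 (9 of 10 each) and FGF2 cluster 9 (10 of 10). Epithelial-like cells were control clusters 9 (5 of 9) and 13 (8 of 9) and FGF2 cluster 11 (6 of 9). Schwann or glial-like cells were control cluster 10 (8 of 9) and FGF2 cluster 16 (4 of 9), macrophage-like cells control cluster 11 (9 of 10) and mast cell-like cells FGF2 cluster 15 (8 of 8). Control clusters 4 and 9 and FGF2 clusters 10 and 13 stood apart, with median shares of their listed genes of 7.0% to 14.4% against 66.5% to 84.8% in the other cells. Clusters 4 and 9 made up 13.4% of the control library, and clusters 10 and 13 made up 4.92% of the FGF2 library. Control cluster 4 and FGF2 cluster 13 kept their numbers although 6 of 7 and 5 of 7 contractile markers were listed as higher there. Fibroblast markers, which the labelled stroma should carry, were led by control clusters 1, 2 and 6 (4 of 8 listed higher in each) and FGF2 cluster 8 (6 of 8).

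**Figure D1:**
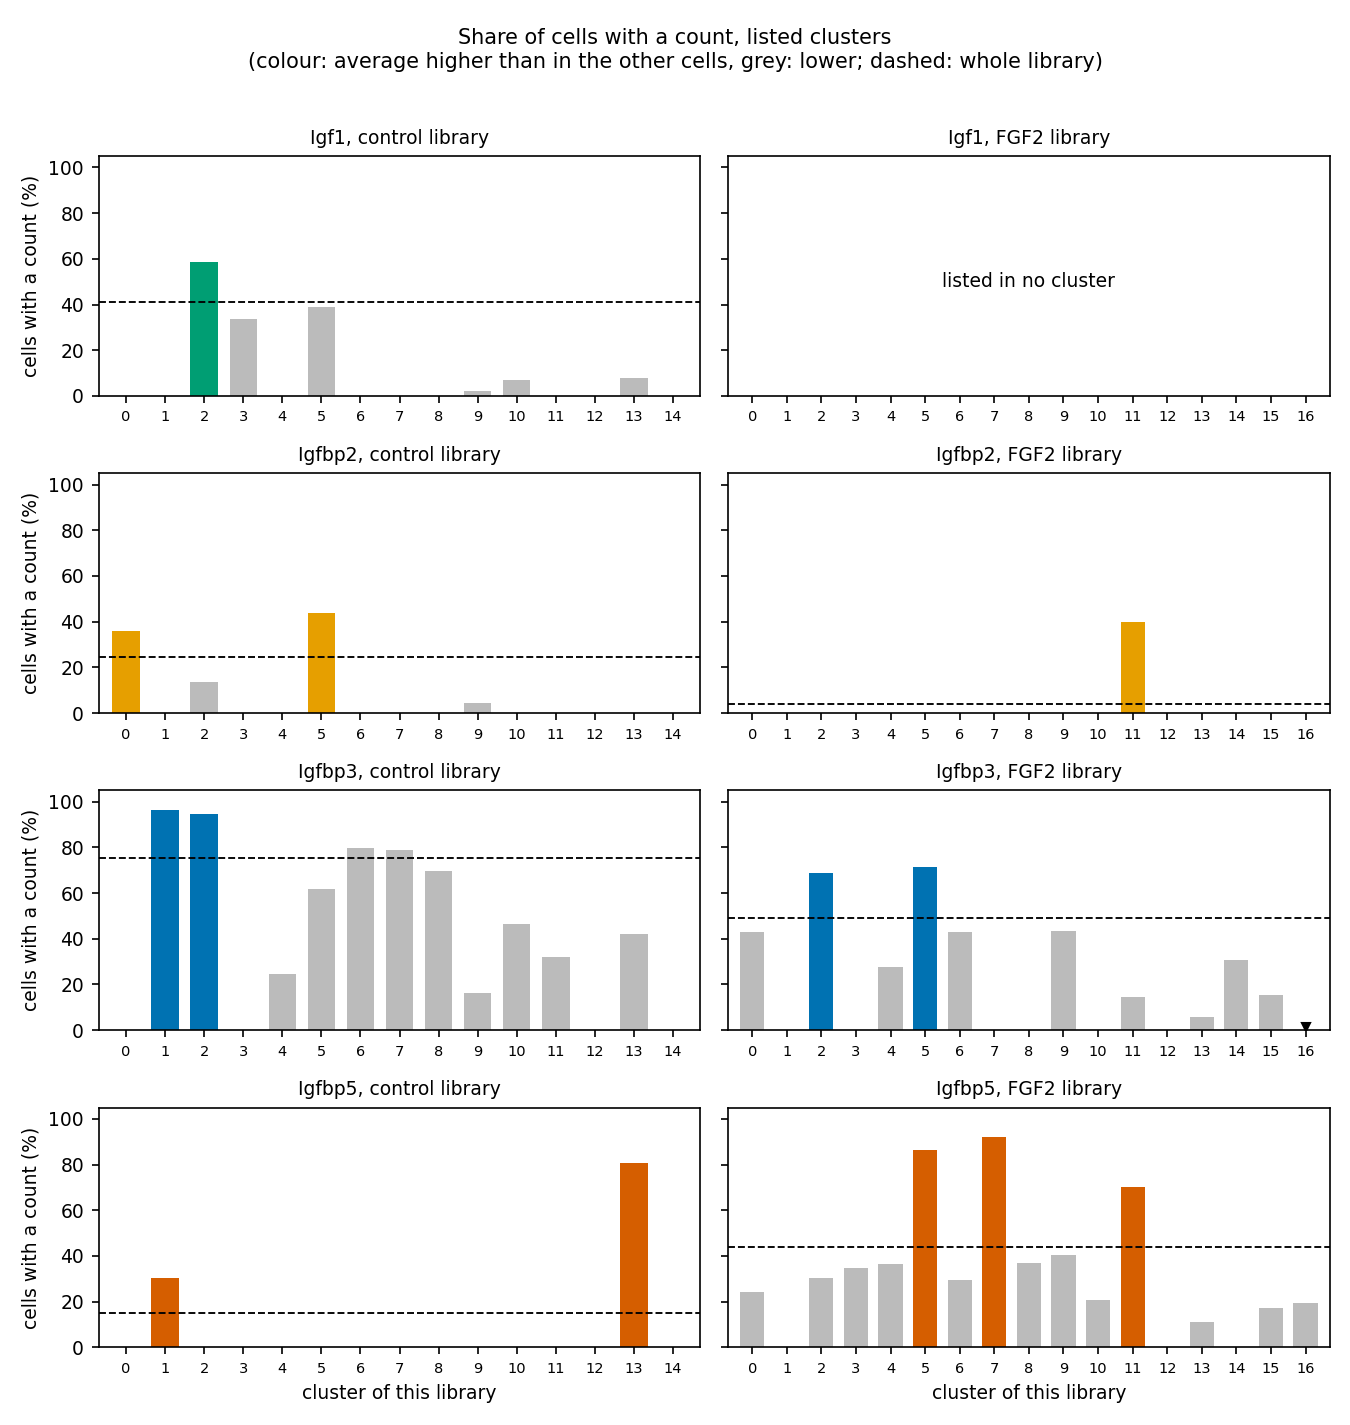
Bars give the percentage of cells with a count of each gene in the clusters listed for it, with control clusters on the left and FGF2 clusters on the right. Colour marks a higher average than in the other cells and grey a lower one, a missing bar is a cluster with no entry, the triangle marks an entry listed at 0, and the dashed line is the share over the whole library. The dashed lines stand at 14.9% (control) and 44.1% (FGF2) for Igfbp5 and at 24.7% and 4.16% for Igfbp2.

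Igf1 was found in 41.3% of cells of the control library. Among its listed clusters it was highest in cluster 2, which is led by Spp1, Cxcl13 and Saa3. In the authors' deposited table it was found in 58.6% of cluster 2 against 38.5% of the other cells, with an average 1.997-fold that of the other cells (both averages with an offset of 1). It was listed as lower in the other 5 of 6 listed clusters. By the authors' deposited table these were cluster 3 (33.6%, led by Thbs1 and Vegfd), the contractile-like cluster 5 (38.8%), the epithelial-like clusters 9 (2.1%) and 13 (7.7%) and the Schwann or glial-like cluster 10 (6.9%). The 2 stromal clusters among them thus lay near the library's share, and the epithelial-like and glial-like ones far under it. The genes listed for cluster 9 had a median share of only 7.0%, and its part in the Igf1 value was not tested. The 9 clusters with no Igf1 entry, 61.5% of the cells, held Igf1 in 41.9% of their cells together, close to the library's share. Across the control table, 46.7% of listed entries had the higher average in the cluster.

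Set against the library's average, with 1 added to both, Igf1 in cluster 2 reached 1.75 and the 5 lower clusters lay between 0.66 and 0.71. An average cannot be below 0, which puts the control average of Igf1 at 0.519 or more in the authors' normalised unit, and that of cluster 2 at 1.66 or more. Igf1 was listed in none of the 17 FGF2 clusters, so it has no FGF2 value and the libraries could not be compared for it. Of the 4419 genes of the control table, 47.4% were likewise not listed in the FGF2 table. A gene goes unlisted in a cluster when its natural log ratio is under 0.25 in size, when the larger of its shares is under about 25.1%, or when its p-value is too high, and these cases cannot be told apart here.

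Igfbp2, a binding protein with an affinity for IGF2 as well as IGF1, was found in 24.7% of cells of the control library. Among its 4 listed control clusters it was highest in contractile-like cells. The authors' deposited table gave it in 43.7% of the contractile-like cluster 5 against 22.9% of the other cells, and in 36.1% of cluster 0 (led by Fbn2, Vegfd and Dlk1) against 22.4%. Cluster 2, the cluster highest in Igf1, held it in 13.4% of cells against 26.6% in the authors' deposited table. Of the 3 clusters listed for both genes, Igf1 and Igfbp2 went in opposite directions in 2, clusters 2 and 5. The 11 clusters with no entry held Igfbp2 in 22.2% of their cells together.

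In the FGF2 library Igfbp2 was listed for the epithelial-like cluster 11 alone, in a table where 34.7% of listed entries had the higher average in the cluster. The authors' deposited table gave it in 39.9% of that cluster and in 3.1% of the other FGF2 cells, with a 3.33-fold higher average. Cluster 11 also had 4 of 7 contractile markers and 4 of 7 basal epithelial or myoepithelial markers listed higher, and the part of such cells or of doublets in the Igfbp2 value was not tested. The control epithelial-like cluster 9 had Igfbp2 in 4.2% of cells against 25.3% of the others in the authors' deposited table, and is the cluster whose listed genes had a median share of 7.0%. Control cluster 13 had no Igfbp2 entry.

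Igfbp3, the main carrier of IGFs in serum and also a product of fibroblasts, was the most widely found of these genes in the control library, at 75.5% of cells. It was listed in 11 of 15 control clusters, and 1.04% of the genes of that table were listed in at least 11. Cluster 1 (led by Crabp1, Mmp3 and Cpxm1) held it in 96.2% of cells and cluster 2 in 94.6% in the authors' deposited table. These 2 were the clusters listed as higher, with averages 2.16-fold and 2.17-fold those of the other cells. By the authors' deposited table the 9 lower clusters ran from 79.7% (cluster 6) and 79.0% (the proliferating-like cluster 7) through 69.6% (cluster 8), 61.9% (the contractile-like cluster 5), 46.6% (cluster 10), 42.3% (cluster 13), 32.1% (cluster 11) and 24.7% (cluster 4) to 16.2% (cluster 9). With no replicate, neighbours in this order cannot be separated from the spread between cultures. Clusters 0, 3, 12 and 14, which had no entry, held Igfbp3 in 86.9% of their cells together.

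Shares and averages of Igfbp3 ranked the control clusters differently. The contractile-like cluster 5 had a level of 0.28 relative to the library average, as low as the macrophage-like cluster 11 (0.27), although its share was 61.9% against 32.1% in the authors' deposited table. Macrophages are not known as a main source of Igfbp3, so that 32.1% is used as a reference, called the background share. What it comes from was not tested, and the genes listed for cluster 11 had a median share of 30.2%. The lower shares of clusters 4 and 9 are not read as expression. Their averages were nevertheless above that of cluster 11, at 0.64 and 0.45 of the library average, and median depths are unknown. Clusters 1 and 2 stood at 1.85 and 1.87, and the clusters with no entry at 0.85 together.

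In the FGF2 library Igfbp3 was found in 49.1% of the cells and was listed in 11 of 17 clusters, where 1.83% of the genes of that table were listed in at least 11. By share in the authors' deposited table it was highest in cluster 5 (71.5% against 47.4% of the other cells, led by Igfbp5, Cd24a and Nr4a2) and cluster 2 (68.8% against 46.7%), of which it is itself the leading gene. The other 9 listed FGF2 clusters had it in 0% to 43.3% of cells in the authors' deposited table, among them the contractile-like cluster 4 (27.8%), the epithelial-like cluster 11 (14.4%), the mast cell-like cluster 15 (15.6%) and the Schwann or glial-like cluster 16, where it was listed at 0. The mast cell-like share of 15.6% is used as the background share here, and the shares of clusters 11, 13 and 16 lay under it. The genes listed for cluster 15 had a median share of 21.9%. Cluster 14, led by S100a9 and S100a8, had Igfbp3 in 30.8% of cells in the authors' deposited table. The unlisted clusters 1, 3, 7, 8, 10 and 12 held it in 53.1% of their cells together.

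The entry at 0 in cluster 16 fixes the scale of the Igfbp3 averages, because that cluster's average must then be 0. On this scale the FGF2 library averaged 1.97 in the authors' normalised unit. Cluster 2 averaged 5.88 and cluster 5 4.84, so cluster 2 was above cluster 5 by average and below it by share. The contractile-like cluster 4 averaged 0.214, the epithelial-like cluster 11 0.338 and the mast cell-like cluster 15 0.680. Divided by the share of cells with a count, the average per such cell was 8.55 in cluster 2, 6.78 in cluster 5 and 0.771 in cluster 4. It was 4.36 in the mast cell-like cluster 15, whose share is used as the background share, 3.45 in cluster 14, 2.51 in cluster 13 and 2.35 in cluster 11. The value per positive cell was thus high in cluster 15 too, and the part of depth in it was not tested. For the control library the averages give only bounds, 2.67 or more over all cells and 5.85 or more in cluster 2.

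Igfbp5, a matrix-bound binding protein cut by pappalysin, was found in 14.9% of cells of the control library, with its highest listed share in epithelial-like cells. It was listed in 2 control clusters. The authors' deposited table gave it in 80.8% of the epithelial-like cluster 13 against 14.5% of the other cells, with a 21.1-fold higher average, and it is the leading gene of that cluster. That cluster is 0.517% of the control cells and also carries the basal keratin genes Krt14 and Krt5. Stromal cluster 1 held Igfbp5 in 30.5% of cells against 12.2% in the authors' deposited table, with a 1.56-fold higher average. The other 13 clusters, 85.0% of the cells, held it in 11.8% of their cells together.

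In the FGF2 library Igfbp5 was found in 44.1% of the cells and was listed in 14 of 17 clusters, a number that 5 of the 3058 genes of that table (0.164%) reached or passed. It was highest in the authors' deposited table in stromal cluster 7 (92.2% against 41.0% of the other cells, with Il11 and Slpi next among its leading genes), cluster 5 (86.6% against 40.7%) and the epithelial-like cluster 11 (70.1% against 43.3%). The averages there were 6.49-fold, 4.47-fold and 2.02-fold those of the other cells. Igfbp5 is the leading gene of clusters 5 and 7. The 11 lower clusters had it in 11.3% to 40.6% of cells in the authors' deposited table, with 24.2% in cluster 0, the largest cluster, led by Nptx1 and Cdkn2a, and 17.2% in the mast cell-like cluster 15, a cell type not known for Igfbp5. The share of cluster 13, at 11.3% in the authors' deposited table, lay under that of cluster 15. Clusters 1, 12 and 14, with no entry, held it in 58.7% of their cells together.

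The range of Igfbp5 levels between FGF2 clusters was wide. Relative to the library average, with 1 added to both, cluster 7 stood at 4.87 and cluster 5 at 3.57, whereas cluster 0 stood at 0.17 and cluster 6 at 0.23. The lowest of these puts the FGF2 library's average at 4.79 or more in the authors' normalised unit and that of cluster 7 at 27.2 or more. The control epithelial-like cluster 13 averaged 20.1 or more.

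Igfbp3 and Igfbp5 had partly different high clusters in the FGF2 library. Over the 10 FGF2 clusters listed for both, they had the same direction in 8 and the opposite direction in 2. Cluster 5 was high in both genes. Cluster 2 was high in Igfbp3 (2.32) and low in Igfbp5 (0.35), and the epithelial-like cluster 11 was low in Igfbp3 (0.45) and high in Igfbp5 (1.96). Pearson's r of the natural log ratios over these 10 clusters was 0.38, given as a description because the clusters share 1 library. In the control library Igf1 and Igfbp3 had the same direction in 5 of 5 clusters listed for both. These were cluster 2 (both higher) and clusters 5, 9, 10 and 13 (both lower), and clusters 9, 10 and 13 are epithelial-like or glial-like. Clusters with an entry for only 1 of these genes were not counted, such as cluster 1 (Igfbp3 higher) and cluster 3 (Igf1 lower).

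**Figure D2:**
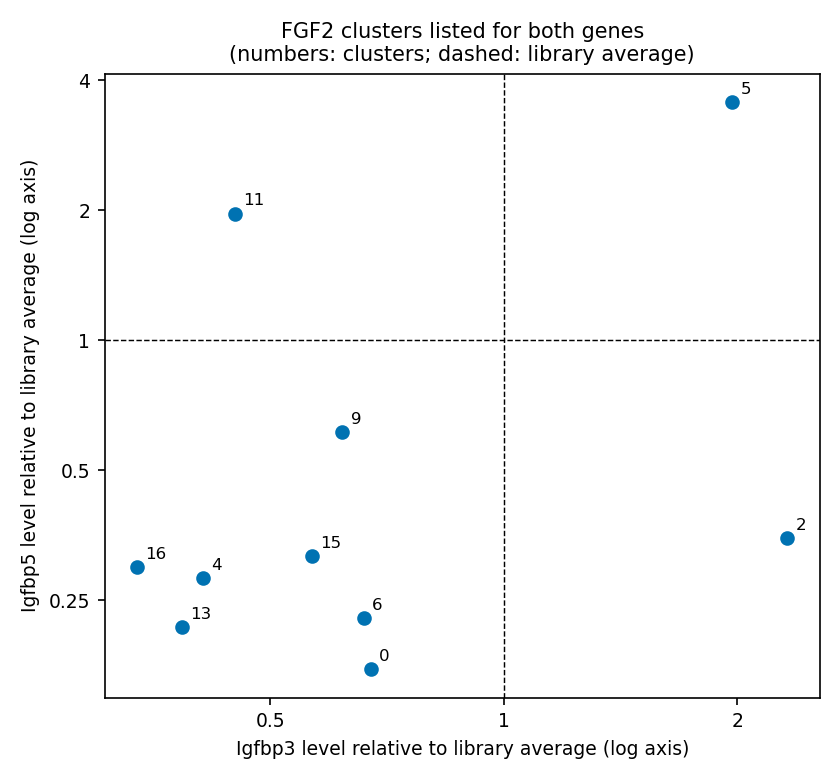
Each point is 1 of the 10 FGF2 clusters listed for both genes, with the Igfbp3 level on the x axis and the Igfbp5 level on the y axis, each as the cluster's average over the library's, with 1 added to both, on log axes. Cluster 5 lies above the library average (dashed lines) for both genes, cluster 2 for Igfbp3 alone and cluster 11 for Igfbp5 alone, and the other 7 clusters lie below it for both.

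The comparison between the libraries asks which of these genes were found in more or fewer cells with FGF2. By a size rule of 1.5-fold on the share of cells, 1 of the 3 comparable genes was higher with FGF2 and 2 were lower, where 7.51% of the 2318 genes compared were higher and 15.2% lower. Igfbp5 went from 14.9% of cells in the control to 44.1% with FGF2, a 2.97-fold higher share. Igfbp2 went from 24.7% to 4.16%, a 5.95-fold lower share. Igfbp3 went from 75.5% to 49.1%, a 1.54-fold lower share that lay just past the rule and did not pass a rule of 2-fold. Without the 4 clusters of low listed shares, the values were 14.9% and 45.4% for Igfbp5, 25.4% and 4.16% for Igfbp2 and 83.6% and 49.7% for Igfbp3. A gene with no entry in a left-out cluster was given the library's share there. The control value of Igfbp5 and the FGF2 value of Igfbp2 could therefore not move. A share over a library moves with the sizes of its clusters, the depth per cell and free RNA as well as with the gene, and these cannot be told apart with 1 library a group.

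Clusters named from the same markers in both libraries gave values side by side. Igfbp3 was found by the authors' deposited tables in 61.9% of the contractile-like cluster 5 of the control and 27.8% of the contractile-like cluster 4 with FGF2. The unnamed clusters with many contractile markers had it in 24.7% (control 4) and 5.6% (FGF2 13) of cells in the authors' deposited tables, both of them clusters of low listed shares. Control cluster 3, with 4 of 7 contractile markers listed higher, had no Igfbp3 entry. Proliferating-like cells had it in 79.0% (control 7), 69.6% (control 8) and 43.3% (FGF2 9) in the authors' deposited tables. The Schwann or glial-like clusters had it in 46.6% and 0% of cells in the authors' deposited tables. The epithelial-like clusters with an Igfbp5 entry had it in 80.8% (control 13) and 70.1% (FGF2 11) of cells and Igfbp3 in 42.3% and 14.4% in the authors' deposited tables. The larger epithelial-like cluster of the control, cluster 9 with 2.83% of the cells, had no Igfbp5 entry, and its Igfbp3 share lay under the background. The background share of Igfbp3 itself was 32.1% in the control (macrophage-like cells) and 15.6% with FGF2 (mast cell-like cells) in the authors' deposited tables. These are different cell types. FGF2 cluster 14, with 3 of 10 macrophage markers listed higher, had Igfbp3 in 30.8% of cells in the authors' deposited table. FGF2 clusters 11 and 16 lay under the 15.6%, and the contractile-like FGF2 cluster 4 (27.8%) lay under the share of cluster 14. The smaller Igfbp3 shares with FGF2 are therefore given as values, and no difference between matched cells is read from them. The proliferating-like clusters had median shares of all their listed genes of 88.2% and 87.9% in the control and 72.1% with FGF2. The Schwann or glial-like clusters also differed in the median share of all their listed genes, 56.9% for control cluster 10 against 16.1% for FGF2 cluster 16, and FGF2 cluster 11 stood at 28.5%, and the part of this in the Igfbp3 values was not tested. The contractile-like pair was closer, at 90.7% and 87.1%.

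The other genes of the pathway came from a list of 47 symbols, some of them older names of the same gene, of which 28 were listed in some table and 19 could be compared between the libraries. Of these 19, 1 was higher with FGF2 and 3 were lower, with a median log2 ratio of -0.22 against -0.08 over all genes compared. Over all 2318 genes 7.51% were higher and 15.2% lower, so these counts lie near the background and are not a result about the pathway; the genes are named for their values. The higher one was Stc1 (26.2% of cells in the control and 62.0% with FGF2), a stanniocalcin, a family of secreted proteins that inhibit pappalysins. Pappa, the protease that cuts IGFBP-4 and IGFBP-5, was lower, at 68.1% and 14.04%. The other lower genes were Ccn2 (37.8% and 10.1%), a matrix protein with an IGF-binding type domain, and Pik3r1 (60.0% and 29.0%), a regulatory subunit of the PI3 kinase used by the receptor. The receptor genes Igf1r (76.8% and 77.6%) and Igf2r (76.8% and 74.9%) and the ligand gene Igf2 (89.5% and 82.6%) lay within the rule.

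Among the remaining binding protein genes, Igfbp4 was found in 78.9% and 67.1% of the cells, Igfbp6 in 47.1% and 64.9% and Igfbp7, whose product binds IGFs weakly, in 92.1% and 96.0%, all within 1.5-fold. For genes found in most control cells, such as Igf2 and Igfbp7, a higher call was not possible on shares. By the ratio of odds, which is not capped in this way, 3 of the 19 were higher and 9 lower, while 467 and 834 of all 2318 genes were. Igfbp6 (log2 ratio of odds 1.06) and Igfbp7 (1.04) were among those higher by odds. Igfbp4 (-0.88) and Igf2 (-0.84) were among those lower. Stc1 and Pappa stood on the same side of the rule without the 4 clusters of low listed shares. The values were 27.0% and 64.7% for Stc1 and 77.2% and 14.04% for Pappa. The FGF2 value of Pappa could not move, because Pappa had no entry in the left-out FGF2 clusters.

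**Figure D3:**
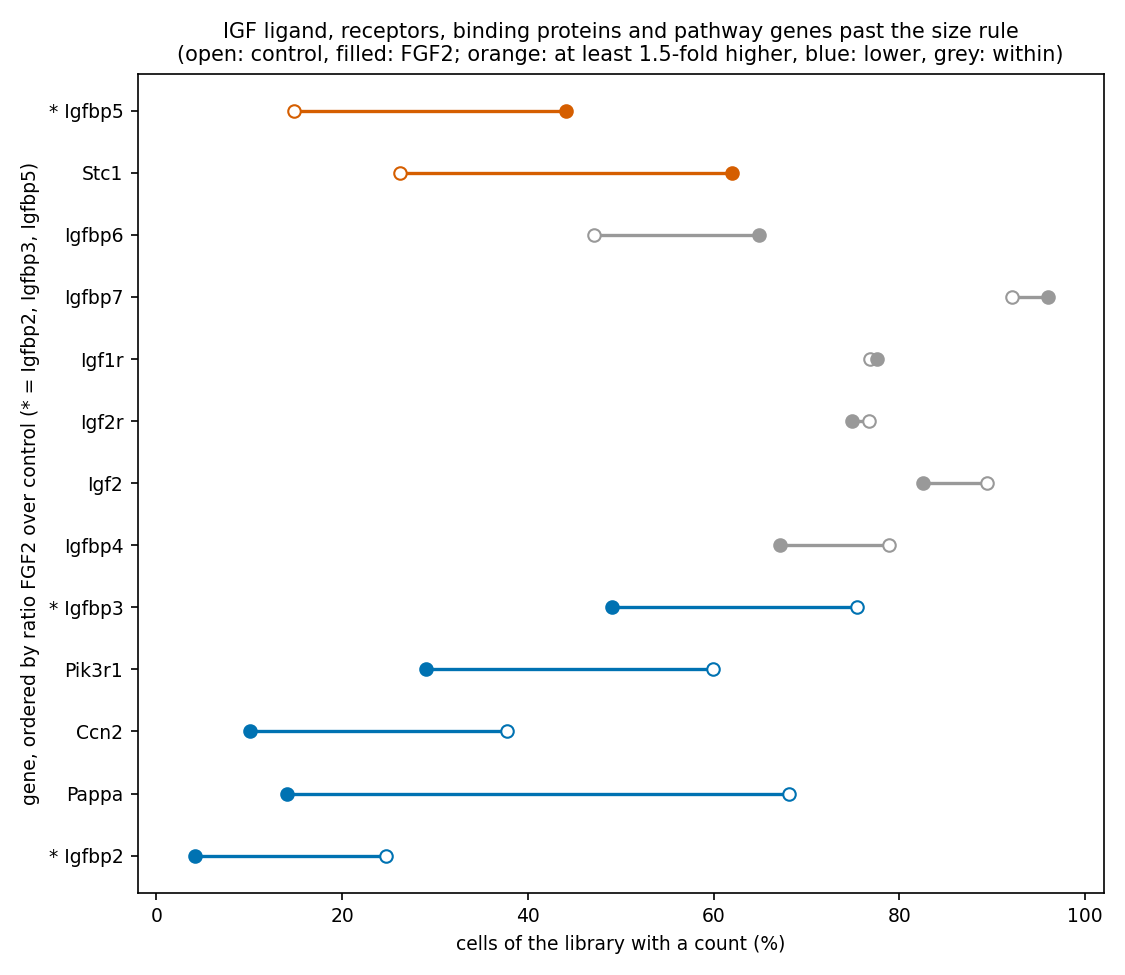
Each line joins the percentage of control cells (open circle) and of FGF2 cells (filled circle) with a count of a gene, for the ligand, receptor and binding protein genes listed in both library tables and the other pathway genes past the size rule, ordered by their ratio. Igfbp5 and Stc1 were at least 1.5-fold higher with FGF2 (orange), Igfbp2, Igfbp3, Pappa, Ccn2 and Pik3r1 lower (blue), and the remaining genes drawn lay within the rule (grey).

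Other pathway genes also differed between the stromal clusters of the control library. In cluster 1, high in Igfbp3 and Igfbp5, the authors' deposited table listed Igf2 (99.3%), Igf2r (90.3%), Igfbp4 (96.7%), Igfbp6 (60.9%) and Stc1 (38.7%) as higher and Pappa (64.7%) as lower. In the contractile-like cluster 5, high in Igfbp2, the authors' deposited table listed Pappa (99.6%), Ccn4 (98.7%) and Ccn2 (90.4%) as higher. It listed Igf2 (95.3% against 88.9% of the other cells), Igfbp4 (79.3% against 78.9%) and Stc1 (15.6% against 27.2%) as lower by average. For Igf2 and Igfbp4 the share was not lower there, only the average. Of the pathway genes other than the 4, 6 were listed higher and 6 lower in cluster 1, and 6 higher and 5 lower in cluster 5. In cluster 2, highest in Igf1, 2 were listed higher and 5 lower. In the authors' deposited table Stc1 (41.1%) was among the higher, and the lower were Pappa (45.6%), Ccn2 (17.1%), Ccn3 (9.4%), Ccn4 (56.3%) and Ccn5 (13.7%).

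With FGF2, Stc1 was high in 2 of the 3 clusters that were high in Igfbp5. In the authors' deposited table Stc1 was found in 89.2% of cluster 7 and 81.9% of cluster 5, against 60.2% and 60.4% of the other cells, and in 41.6% of the Igfbp3-led cluster 2 against 64.5%. The epithelial-like cluster 11, the remaining Igfbp5-high cluster, had Stc1 in 19.9% of cells against 63.2% in the authors' deposited table. Igf1r was listed as higher in cluster 7 in the authors' deposited table (95.8% against 76.4%). Igf2 was listed as higher in cluster 2 in the authors' deposited table (92.7% against 81.4%) and as lower in cluster 7 (77.7% against 82.9%). The single FGF2 entry of Pappa in the authors' deposited table was the contractile-like cluster 4, at 48.8% against 11.1%.

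Likeness to Igfbp3 was measured across clusters. Over control clusters listed for both genes, Pearson's r of natural log ratios was 0.97 for Serping1, the C1 inhibitor (10 clusters), and 0.96 for Lum, a matrix proteoglycan (9 clusters), among 27 candidates with a median of 0.86. In the FGF2 library the highest were Dcn, a matrix proteoglycan (0.96 over 10), Fbln1, a matrix glycoprotein (0.95 over 9), and Cped1 (0.95 over 9). The 32 candidates there had a median of 0.44. Dcn had no entry in FGF2 cluster 2, where Igfbp3 was highest by average, so its value leaves that cluster out. For Igfbp5 in the FGF2 library the best were Sod2, the mitochondrial superoxide dismutase (0.82 over 12), the neuropeptide gene Tac1 (0.76 over 12) and Thbd, the gene of thrombomodulin (0.51 over 13), among 6 candidates with a median of 0.37. Sod2 stood at 0.63 by Spearman's rho and 0.62 by Pearson's r of shares, and by shares Tac1 (0.68) ranked above it. These are descriptions over clusters of 1 library, and the clusters were formed on the same genes.

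The integrated table holds both libraries after integration by the authors. Its values may be batch-integrated, so its differences are not read as expression: over 796 genes listed in all 3 tables, the integrated share exceeded the mean of the library shares weighted by captured cells by a median of 10.0 points, and for Igfbp5 it was 60.3% against 34.4%. The authors' deposited table listed Igf1 for integrated cluster 7 alone (48.5% against 21.6%, led by Ifitm1, Lpl and Saa3), where Igfbp3 was also higher (82.8% against 52.9%). Igfbp2 was listed for the epithelial-like integrated cluster 9 alone in the authors' deposited table (62.0% against 12.5%), with Igfbp5 higher (80.6% against 59.6%) and Igfbp3 lower (15.1% against 55.4%) there. Igfbp5 led integrated cluster 1 in the authors' deposited table (77.1% against 56.9%), with a 7.67-fold higher average. Igfbp3 was also higher in integrated cluster 3 (80.1% against 49.8%, led by Mgp and Lum) and in the endothelial-like cluster 13 (78.1% against 54.1%) in the authors' deposited table.

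Share and average did not always point the same way. Of the entries of the 4 genes, 2 of 23 in the control table, 0 of 26 in the FGF2 table and 5 of 23 in the integrated table had the larger share but the lower average in the cluster or the reverse, where this held for 14.3%, 11.5% and 19.0% of all entries. In integrated cluster 2, led by Acta2 and Tagln, the authors' deposited table gave Igfbp5 an integrated share of 80.5% against 56.8%, with an average 4.17-fold below that of the other cells, and this is a description of integrated values. In control cluster 6 the authors' deposited table gave Igfbp3 in 79.7% of cells against 75.1%, with an average 1.68-fold below that of the other cells.

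**Figure D4:**
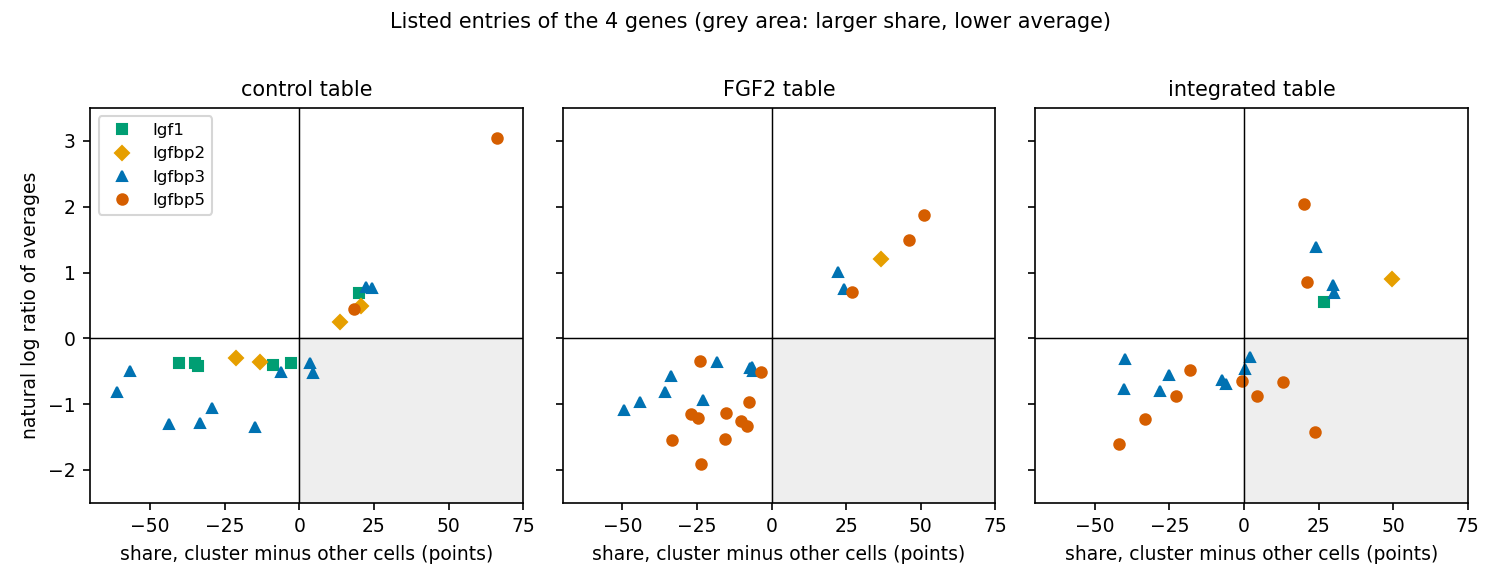
Each point is a listed entry of Igf1, Igfbp2, Igfbp3 or Igfbp5 in the control, FGF2 or integrated table, with the share of cells in the cluster minus that in the other cells (percentage points) on the x axis and the natural log ratio of the averages on the y axis. The grey area holds entries with a larger share and a lower average, 2 in the control table, 0 in the FGF2 table and 5 in the integrated table.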

How the data were processed

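Single-cell RNA was measured in 1 control and 1 FGF2 library on the 10x Chromium system, with Cell Ranger 4.0 and mm10 per the submitters' processing notes. How cells were filtered, doublets treated, values normalised, clusters made and p-values computed was not given in the sources used here. Each of the 3 deposited tables, per the file headers, compares every cluster with the other cells of the same table. The shares are fractions deposited by the authors, printed here as percentages. Those of the integrated table are shares of integrated values. The log ratios deposited by the authors were read as natural log ratios of averages with an offset of 1; over genes that 2 or more clusters list at share 0, the recovered average had a median coefficient of variation of 0.00169% against 0.0488% with base 2 in the control table. The authors' deposited p-values come from single cells and are not printed. Tables were matched to libraries by a word in their names that one sample's description holds.

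Each cluster's part of all cells was recovered by least squares over genes listed in at least 2 clusters (2077 control and 1490 FGF2 genes), because a gene's share over the library is the same whichever cluster it is worked out from. Residuals had a root mean square of 0.0238 (control) and 0.0242 (FGF2) points. From the parts came each gene's library share, the share over its unlisted clusters, and each cluster's average relative to the library. Recovery was tested on simulated tables. Library shares were compared with a size rule of 1.5-fold and a floor of 0.5%. Depth per cell is unknown, so no interval is given. The alternatives were other ways to recover the shares, a 2-fold rule, no floor, a ratio of odds, stricter limits on entries, log base 2, other measures of likeness, and leaving out clusters 4 and 9 (control) and 10 and 13 (FGF2). Genes named are the 4 genes, the listed genes of an IGF pathway list and, per gene and library, the 3 most alike among genes listed in at least 8 clusters and in at least 80% of the gene's own. Some genes that this rule names are not reported here. The members and lists were chosen with earlier results of these data known. Python 3.11.15, numpy 2.4.6 and pandas 2.3.3 were used.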

Additional observations from a re-analysis of the deposited data

How the results depend on the processing

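No paired analysis was possible because each group holds 1 library, and no replicate could be left out for the same reason. Of the alternatives run for the ratio between the libraries, a 2-fold rule, no floor and a ratio of odds cannot change its direction. Leaving out the clusters of low listed shares can, and there the log2 ratios were -2.61 (Igfbp2), -0.75 (Igfbp3) and 1.61 (Igfbp5). These kept the direction they had with all clusters. Igfbp3 (log2 ratio -0.62 with all clusters) did not pass the 2-fold rule. Without the clusters of low listed shares, the control share of Igfbp3 was 83.6% and the FGF2 share of Igfbp5 45.4%, and the log2 ratios of Igf1r (-0.16) and Igfbp7 (-0.022), both within the rule, changed sign; the cause was not tested. With a 2-fold rule 98 genes were higher and 174 lower, and with odds 467 and 834, which for the other pathway genes gave 3 and 9.

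With log ratios of at least 0.5, the entries left were 0 lower for Igf1 (control), 0 higher and 0 lower for Igfbp2 (control), 5 lower for Igfbp3 (FGF2 and integrated alike) and 1 higher for Igfbp5 (control). Lower entries left were also 7 for Igfbp3 (control), 10 for Igfbp5 (FGF2) and 7 for Igfbp5 (integrated). With the authors' adjusted p under 0.05, 3 lower entries were left for Igf1 (control). For Igfbp3, 6 (control), 8 (FGF2) and 7 (integrated) lower entries were left. For Igfbp5, 8 (FGF2) and 5 (integrated) were left. In clusters of at least 1% of the cells, Igfbp5 had 1 higher control entry and a highest relative level of 1.44, since cluster 13 is smaller. Read as base 2, the highest relative levels were 1.49 for Igf1, 1.36 (control) and 2.22 (FGF2) for Igfbp2, 1.56 and 1.82 for Igfbp3 and 7.97 and 3.15 for Igfbp5. These changes follow from fewer entries or the smaller base. Depth per cell is unknown and limits every share.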

Other observations

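Genes of the CCN family, secreted matrix proteins with an IGF-binding type domain, marked other control stromal clusters than Igf1 and Igfbp3 did. In the authors' deposited table Ccn3 was found in 70.9% of control cluster 3 and 9.4% of cluster 2, Ccn5 in 77.5% and 13.7%, and Ccn2 in 73.4% and 17.1%. Ccn4 was found in 98.7% of the contractile-like cluster 5 and 96.9% of cluster 6 in the authors' deposited table, against 56.3% of cluster 2. Ccn3, Ccn4 and Ccn5 had no FGF2 entry, so no change with FGF2 can be read for them. Igfbp6 had its highest listed share with FGF2 in cluster 0 in the authors' deposited table (82.9% against 61.5% of the other cells), the cluster where Igfbp5 stood lowest relative to the library average (0.17).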
